A study of Mus musculus with 147 samples.

Results

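The somatic cells of the early male gonad were taken as the Negative cells of E11.5 and E12.5 wild-type embryos, that is, the cells outside the gate of the germ cell reporters BLIMP1-mVenus and STELLA-ECFP (together BVSC). They were chosen by the time-point, genotype and gate that the cell names carry and by the quality filter of the study, more than 2000 genes and between 10000 and 1000000 transcripts. The filter removed 3 such cells and kept 30 and 23 cells of E11.5 and 24 and 24 cells of E12.5 (replicates 1 and 2), among 13032 cells of the whole series and 11598 wild-type cells that passed the same filter. Cells that share time-point, gate and replicate are called a pool here, and their counts were summed, so the soma had 4 pools. The cells they were compared with were the BVSC cells, which carry both reporters and are the primordial germ cells of the same gonads, with 79, 72, 66 and 72 cells in the same order. All these embryos had C57BL/6 mothers and fathers homozygous for the BVSC transgenes. Both gates therefore carry the reporters, which are driven by regulatory DNA of Prdm1 (BLIMP1) and Dppa3 (STELLA). Males were chosen at E11.5 by PCR for Sry, embryos of a replicate were pooled, and no treatment was given. A Negative cell is defined only by lacking the reporters, so the gate can hold any other cell of the dissected gonad. The RNA of single cells was read by a modified STRT-seq, which counts the 3′ ends of transcripts by unique molecular identifiers (UMIs). UMIs totalled 2928743 to 5865209 per Negative pool and 20701229 to 25629589 per BVSC pool, with medians of 112208.5 to 182121 per Negative cell and 288191 to 371117.5 per BVSC cell.

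The gonad arises as a ridge on the mesonephros, covered by coelomic epithelium, and its somatic cells express transcription factors such as WT1, GATA4 and NR5A1 (SF-1) before the sexes differ. In XY embryos SRY switches on Sox9 in the supporting lineage, which becomes Sertoli cells, makes anti-Müllerian hormone (AMH) and desert hedgehog (DHH), and encloses the germ cells in cords. Cells left outside the cords form the interstitium, marked by COUP-TFII (Nr2f2), TCF21 and PDGF receptor alpha, and part of these answer hedgehog signals, become fetal Leydig cells and make steroids. In the XX gonad WNT4, RSPO1, FST and FOXL2 act in the supporting lineage instead.

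The promoters of Sct and Amhr2 are shown because Sct, a peptide hormone, had the largest difference in time course between the gates, Amhr2, the receptor of AMH, fell with time, and both hold the letters AAGGTCA, to which NR5A1 is known to bind as a monomer. Each is the 250 bases before the start of the gene in RefSeq on GRCm38.p6, written 5′ to 3′ along the gene, with the motif, on either strand, in capitals. The Sct promoter lies at chr7:141279134-141279383 on the minus strand, and its match, TGACCTT, is the one marked. The Amhr2 promoter lies at chr15:102445117-102445366 on the plus strand, and its match, AAGGTCA, lies 231 bases before the start.
Sct: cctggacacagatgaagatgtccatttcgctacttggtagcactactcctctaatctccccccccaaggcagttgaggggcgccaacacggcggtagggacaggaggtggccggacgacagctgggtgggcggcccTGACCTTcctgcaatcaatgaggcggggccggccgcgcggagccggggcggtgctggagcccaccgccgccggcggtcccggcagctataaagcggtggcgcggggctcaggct
Amhr2: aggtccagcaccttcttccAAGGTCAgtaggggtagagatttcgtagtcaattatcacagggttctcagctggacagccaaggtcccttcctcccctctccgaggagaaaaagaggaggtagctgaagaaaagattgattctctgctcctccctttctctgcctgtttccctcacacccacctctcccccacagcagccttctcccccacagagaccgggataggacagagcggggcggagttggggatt
The letters were in 1340 of all 32851 promoters of this length, 4.08%, and in 2 of the 17 genes named for the comparison of time-points that were matched in the table. A match is a description of these letters and no site of binding.

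The Negative cells of E11.5 replicate 1 stood apart from those of the other pools. In E11.5 replicate 1, 7 of 30 Negative cells held more UMIs of Xist, the RNA of the inactive X chromosome, than of Ddx3y, Eif2s3y, Uty and Kdm5d, which lie on the Y (23.3%, exact binomial 95% interval 9.93 to 42.3). None of the 23, 24 and 24 cells of the other Negative pools did, which allows up to 14.8%, 14.2% and 14.2% by the same interval, and 1 of 289 BVSC cells did. These cells thus went against the male label of their embryos, by a narrow margin in a cell with 2 Xist and 1 Y-linked UMIs and in another with 7 and 2, and all 7 held 1 to 4 Y-linked UMIs. Of the 7, 2 held Fst at 721 and 606 counts per 1000000 UMIs (CPM) and Wnt4 at 745 and 417 CPM. E11.5 replicate 1 was sequenced in 2 libraries. In one of them all 16 Negative cells held globin RNA, 0.194 to 5.43% of their UMIs with a median of 0.268%, and so did the 32 cells of the BV gate in that library (0.116 to 0.495%). The highest share in the other library of this replicate was 0.0412%. The genes of the complement component C1q, which macrophages make, had UMIs in 15 of 15 cells of the library with globin and in 0 of 14 of the other. The 5 libraries draw on 96 barcodes, each of which was used in 2 or more of them, and no barcode was used for more than 1 cell within a library. Each time-point has its own libraries, so library and time-point cannot be told apart, while both gates of a replicate were in the same library except for the one with globin, which held no BVSC cells.

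**Figure D1:**
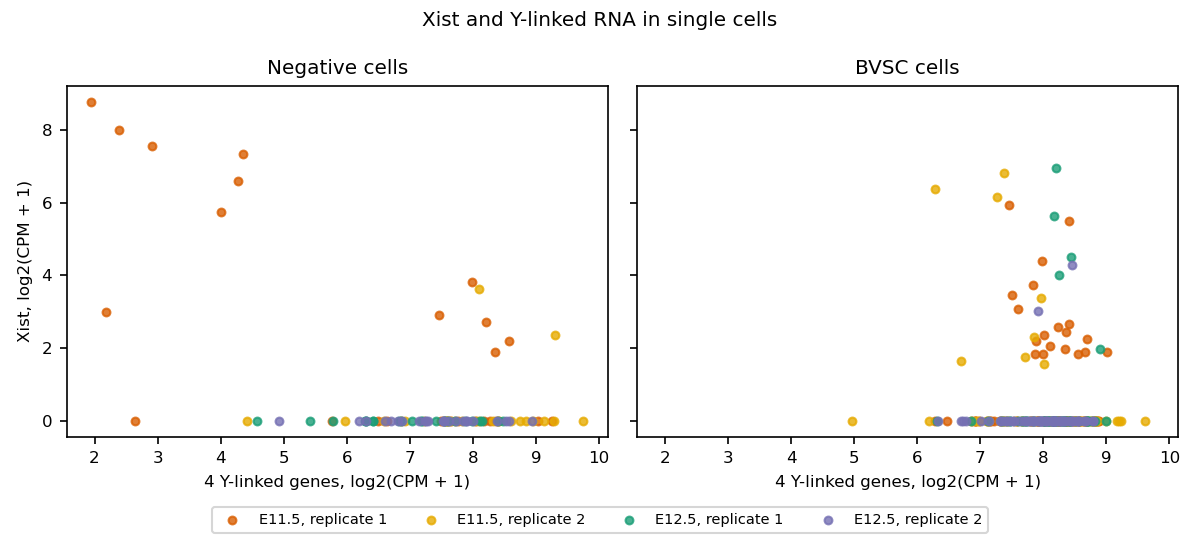
Xist (vertical axis) against the sum of 4 Y-linked genes (horizontal axis), both as log2(CPM + 1), in each Negative cell (left) and each BVSC cell (right), coloured by time-point and replicate. The 7 cells with more Xist than Y-linked UMIs in the Negative panel are all of E11.5 replicate 1.

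The label held against its markers. Summed over a pool, Wt1 was at 444 and 522 CPM at E11.5 and at 272 and 200 CPM at E12.5, and at 3.43 to 7.83 CPM in the BVSC pools. Gata4 was at 180 to 340 CPM against 1.09 to 4.45 CPM, Nr5a1 at 169 to 245 CPM against 0.444 to 2.30 CPM, and Sox9 at 189 to 298 CPM against 0.525 to 5.11 CPM. No Negative pool overlapped a BVSC pool for any of the 4. Under 50 CPM over Wt1, Gata4 and Nr5a1 were 2 cells of E11.5 replicate 1 and no cell of the other Negative pools. One of these 2 held Th at 348 CPM, Dbh at 459 CPM and Isl1 at 425 CPM, genes of sympathetic neurons, and was also one of the 7 cells with more Xist. The other held the macrophage genes Csf1r at 522 CPM, Lyz2 at 1086 CPM and Ptprc at 130.6 CPM. Another cell of this pool, also with more Xist, held 5.43% globin. It was the only cell at 5% or more, the highest of the rest being 0.796%, and it was left out of all values by pool that follow. Endothelial genes were low in all Negative pools, 35.6 to 56.7 CPM summed over 10 genes, with Cdh5 at 0 to 2.30 CPM. The 13 macrophage and leukocyte genes summed to 279 CPM in E11.5 replicate 1 and to 1.51, 13.7 and 10.1 CPM in the other 3 pools, none of them at 0 in all pools, with Csf1r at 28.9 CPM and Ptprc at 4.60 CPM in the first. The 8 mesonephric genes summed to 87.3 and 34.03 CPM at E11.5 and to 17.4 and 7.81 CPM at E12.5, with Wnt9b and Cdh16 at 0, and the 10 globin genes to 1791, 438, 224 and 45.1 CPM. The part of these cells and RNAs in the differences between the time-points was not tested.

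**Figure D2:**
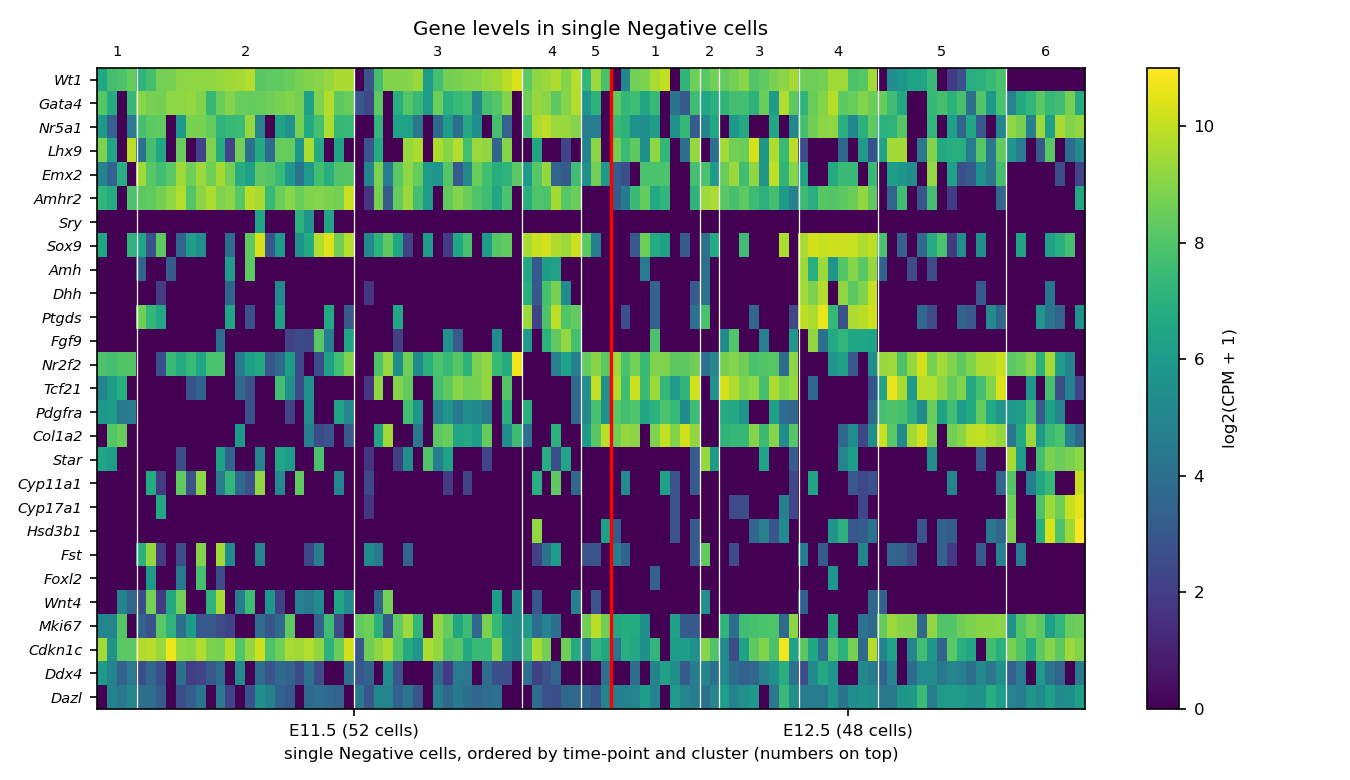
Levels of 27 genes (rows), as log2(CPM + 1) in colour, in the 100 Negative cells with less than 5% globin (columns), ordered by time-point (red line) and by cluster (numbers on top). Amh, Dhh and Ptgds are bright in cluster 4 of E12.5, and Cyp17a1 and Hsd3b1 in cluster 6, where Wt1 is dark.

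The first comparison asked how the soma changed between E11.5, when Sry is on, and E12.5, when cords form. Among the Negative cells with less than 5% globin, 5 of 17 interstitial genes rose, Col1a1, Col1a2 and Nr2f2 among them, as did Dhh, its receptor Ptch1, Hhip, both chains of type IV collagen and Vnn1, and Wnt4, Amhr2 and Ereg fell. Of 12184 genes tested, 71 rose and 52 fell (edgeR's quasi-likelihood test over pools, Benjamini-Hochberg adjusted p under 0.05, 2 pools against 2). That is 1.01% of the genes, 0.583% higher and 0.427% lower. An unadjusted p under 0.05 was held by 1405 of the 12184 genes, and DESeq2 called 473 (3.88%). With the cell rich in globin kept, the shares were 0.688% in all, 0.426% higher and 0.262% lower, and the calls of Dhh, Vnn1, Nr2f2, Wnt4, Amhr2 and Wfdc1 were lost. The count moved with the cells kept in E11.5 replicate 1: 82 genes passed without the cells with more Xist and 11 without the library with globin. It also moved when any of the pools was left out. In sums over a pool, fewer cells of a type and less RNA per cell cannot be told apart. With 2 pools against 2, the pools of an unchanged gene can also lie apart. The share of all genes without overlap was not counted, so a lack of overlap below describes the levels and is no call.

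The supporting cells are the lineage in which SRY acts. Sry itself had UMIs in 4 cells of E11.5 replicate 2, at 54.1 to 136.7 CPM, and in no other Negative cell, and it was too low to be tested. Sox9 stood at 199 and 298 CPM at E11.5 and at 256 and 189 CPM at E12.5, overlapping levels with a log2 change of −0.11 ± 0.28 (SE; adjusted p = 0.942, edgeR). Dhh, the hedgehog ligand of Sertoli cells, stood at 24.1 and 5.29 CPM at E11.5 and at 135.2 and 96.3 CPM at E12.5. It rose by 3.04 ± 0.60 on the log2 scale (adjusted p = 0.0493, edgeR), a call lost without the cells with more Xist (adjusted p = 0.158), with the cell rich in globin kept (0.103) and in 3 others of 15 alternatives, over which the adjusted p ranged from 2.86e-09 to 0.415. Vnn1, a pantetheinase, rose from 2.66 and 10.1 CPM to 68.3 and 61.9 CPM (3.41 ± 0.68, adjusted p = 0.0493), a call lost in 6 of 15 alternatives, among them those without the cells with more Xist (adjusted p = 0.093) and with the cell rich in globin kept (0.059). Both pools of E12.5 lay above both of E11.5 for either gene. Of 8 cells of E12.5 with Vnn1 at 100 CPM or more, 5 held Amh at 50 CPM or more. The other 3 held Cyp17a1 at 100 CPM or more, so this RNA was not confined to supporting cells. Amh, the hormone that removes the Müllerian ducts, was at 19.3 and 0 CPM at E11.5 and at 98.7 and 71.7 CPM at E12.5, without overlap, and did not pass (3.20 ± 1.10, adjusted p = 0.264). Ptgds, a prostaglandin D synthase, was at 85.7 and 33.5 against 172 and 162 CPM (1.56 ± 0.40, adjusted p = 0.124). Of the 21 genes of the supporting cell list that were tested, Dhh and Vnn1 passed as higher and none as lower. The median log2 change was 0.34 against −0.012 over all genes, and 12 of the 21 were above 0. Among those lower at E12.5 without overlap were Dmrt1 (54.5 and 43.9 against 19.5 and 12.4 CPM), Nr0b1 (76.5 and 172 against 73.1 and 19.96 CPM) and Inhbb. None of these 3 passed (adjusted p = 0.241, 0.399 and 0.497, edgeR). With the cell rich in globin kept, neither the call of Dhh nor that of Vnn1 held.

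The interstitial list had the most rises of any list, 5 genes. Col1a1 and Col1a2, the chains of type I collagen, went from 25.7 and 23.9 CPM to 176 and 179 CPM and from 44.4 and 94.03 CPM to 325 and 369 CPM. Their log2 changes were 2.89 ± 0.32 and 2.37 ± 0.36 (adjusted p = 0.0071 and 0.021, edgeR). The groups did not overlap for either. Nr2f2, an orphan nuclear receptor of stromal cells, rose from 118.8 and 164 CPM to 378 and 332 CPM (1.38 ± 0.26, adjusted p = 0.042). Ptch1, the hedgehog receptor and itself a target of the pathway, rose from 70.5 and 47.9 CPM to 152 and 224 CPM (1.73 ± 0.32, adjusted p = 0.042). Its call, like that of Dhh, was lost without the cells with more Xist (adjusted p = 0.093) and without the library with globin (0.072, edgeR). Hhip, another target that binds hedgehog ligands, rose from 0.177 and 1.26 CPM to 52.6 and 110.5 CPM (6.95 ± 0.83, adjusted p = 0.0081). All of the E12.5 pools were thus above all of the E11.5 pools for the ligand, its receptor and this inhibitor. Lum, a collagen-binding proteoglycan, rose from 0.177 and 0.252 CPM to 37.2 and 17.9 CPM (adjusted p = 0.026). Tcf21, a transcription factor of stromal precursors, was at 85.3 and 164 CPM against 431 and 322 CPM, and Pdgfra, the receptor of PDGF-A, at 22.7 and 26.2 against 120 and 74.6 CPM. They did not overlap and just missed the threshold (log2 changes 1.64 ± 0.33 and 2.05 ± 0.42, adjusted p = 0.0547 and 0.0546). Of 17 interstitial and stromal genes 5 rose and none fell, 29.4% against the 0.583% of all genes, with a median of 1.64. The lists were chosen with earlier results of these data known, so this share is a description and no independent support. Without the library with globin 1 of the 17 passed, Col1a2.

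**Figure D3:**
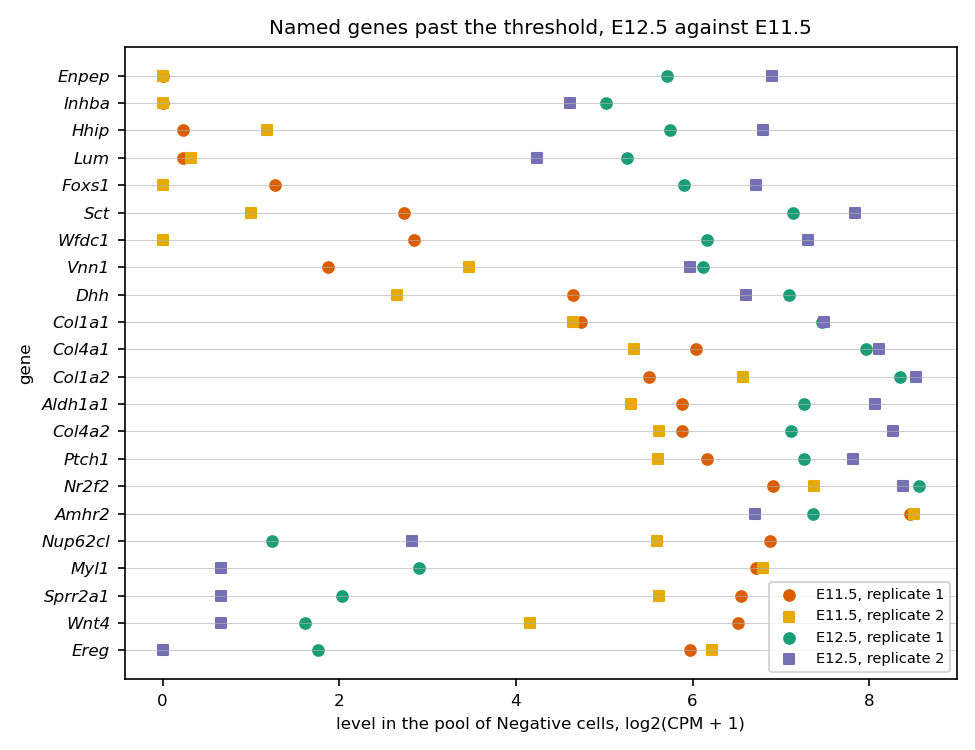
Level of each named gene that passed the test of time-point (rows) in the 4 Negative pools, as log2(CPM + 1), with colour for time-point and replicate. For each gene both E12.5 pools lie on one side of both E11.5 pools, and Sprr2a1 stands also for Sprr2a2. The genes picked for the size of their change were required to do so.

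No steroidogenic gene passed the test. Cyp17a1, the enzyme that makes androgens, was at 6.55 and 0 CPM at E11.5 and at 28.3 and 180 CPM at E12.5 (4.98 ± 1.16, adjusted p = 0.090, edgeR). Star, which carries cholesterol into mitochondria, was at 11.51 and 38.3 against 76.1 and 92.6 CPM (1.80 ± 0.57, adjusted p = 0.211). Hsd3b1, an enzyme of the same pathway, was at 29.2 and 1.26 against 41.3 and 213 CPM (3.12 ± 1.03, adjusted p = 0.236). The E12.5 pools were above the E11.5 pools for all 3, and those of E12.5 were far apart for 2 of them. That order is no call with 2 pools a group. Cyp11a1, another enzyme of the list, was at 70.5 and 32.3 against 24.2 and 95.4 CPM, with overlap (0.29 ± 0.61, adjusted p = 0.926, edgeR). Insl3, a Leydig cell hormone, had no UMI at E11.5 and 34 at E12.5, at least 17.1-fold higher against 3 counts over the E11.5 cells, and was not tested. Of 10 steroidogenic genes 0 passed in edgeR, 6 had an unadjusted p under 0.05 and 1 passed in DESeq2. Over all 12184 genes, 1405 had such a p and 473 passed in DESeq2 (3.88%). The median change of the 10 genes was 1.24.

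The regulators of the early gonad and the ovarian genes leaned the other way. Wt1 (levels above) changed by −0.98 ± 0.23 without overlap and did not pass (adjusted p = 0.095, edgeR). Gadd45g, a regulator upstream of Sry, was at 472 and 395 CPM at E11.5 and at 216 and 186 CPM at E12.5 (−1.05 ± 0.21, adjusted p = 0.0536). Of 16 regulators 0 passed in edgeR, 4 had an unadjusted p under 0.05 and 2 passed in DESeq2, with a median of −0.60. Over all 12184 genes, 1405 had such a p and 473 passed in DESeq2 (3.88%). Wnt4, the signal of the ovarian pathway, fell from 90.5 and 16.9 CPM to 2.05 and 0.578 CPM (−5.27 ± 0.99, adjusted p = 0.042), the 1 gene of 6 in its list to pass. The cells with more Xist carried a part of this RNA, and without them the adjusted p was 0.093 (3.99e-08 to 0.364 over 15 alternatives). With the cell rich in globin kept it was 0.053. Fst, an inhibitor of activin, was at 101.6 CPM in E11.5 replicate 1 and at 2.02, 12.6 and 4.63 CPM in the other pools, and Foxl2 at 15.2 CPM there and at 0 to 0.683 CPM elsewhere. In both, 1 pool stood alone, the one with the cells with more Xist.

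Signals and receptors of the soma moved in both directions. Inhba, a subunit of activin, had no UMI at E11.5 and was at 31.4 and 23.4 CPM at E12.5, at least 86.8-fold higher against 3 counts over the E11.5 cells (adjusted p = 0.022, edgeR). Aldh1a1, an enzyme that makes retinoic acid, rose from 57.7 and 38.3 CPM to 153 and 266 CPM (2.19 ± 0.35, adjusted p = 0.026). Amhr2 fell from 352 and 363 CPM to 164 and 103.2 CPM (−1.37 ± 0.27, adjusted p = 0.049), a call lost in 7 of 15 alternatives, among them those without the cells with more Xist (adjusted p = 0.057), with the cell rich in globin kept (0.061) and without E12.5 replicate 2 (0.174). Its groups were about 2.58-fold apart and did not overlap. Kitl, the ligand that germ cells need for survival, was at 380 and 266 CPM at E11.5 and at 161 and 116.6 CPM at E12.5, without overlap, and did not pass (−1.15 ± 0.27, adjusted p = 0.086). Wnt5a, a signal of mesenchymal cells, was at 81.5 and 122.8 against 301 and 223 CPM (1.41 ± 0.30, adjusted p = 0.067). Of 20 signals 3 rose (Dhh, Inhba and Aldh1a1) and Wnt4 fell, and of 18 receptors Ptch1 rose and Amhr2 fell.

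Col4a1 and Col4a2, the chains of type IV collagen in basement membranes, rose together. Col4a1 went from 64.98 and 39.3 CPM to 249 and 276 CPM (2.39 ± 0.30, adjusted p = 0.0097, edgeR) and Col4a2 from 57.9 and 48.2 CPM to 137.9 and 307 CPM (2.13 ± 0.38, adjusted p = 0.037). They were the 2 of 18 basement membrane and adhesion genes that passed. The call of Col4a2 was lost without the cells with more Xist (adjusted p = 0.085, edgeR). Nid1, which links laminin to this collagen, was at 24.8 and 26.7 against 61.1 and 110 CPM and did not pass (adjusted p = 0.106). Of 20 cell cycle genes 0 passed in edgeR, 5 had an unadjusted p under 0.05, and in DESeq2 1 was higher and 1 lower. Over all 12184 genes, 1405 had such a p and 473 passed in DESeq2 (3.88%), which holds also for the lists below. Cdkn1c, an inhibitor of cyclin-dependent kinases, was at 503 and 424 against 132.5 and 274 CPM (adjusted p = 0.142). Of 15 germ cell genes, 4 mesonephric, 4 endothelial, 2 macrophage, 7 globin, 4 other erythroid and 4 sex-linked genes 0 passed in edgeR. Of these, 2 germ cell, 5 globin, 2 other erythroid and 1 sex-linked gene had an unadjusted p under 0.05, and in DESeq2 1 germ cell gene was higher and 1 globin gene lower.

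Among all genes, those with the largest changes by the rule for named genes (the 5 highest and 5 lowest that passed, with no overlap and a mean of 5 or more on the log2 CPM scale) were mostly not in the lists. Enpep, an aminopeptidase of pericytes and other cells, had no UMI in 52 cells of E11.5 and was at 87.4 CPM over both pools of E12.5 (51.2 CPM in replicate 1), at least 280-fold higher (adjusted p = 0.0064). It was in 22 of 48 cells of E12.5. Sct rose from 5.67 and 1.01 CPM to 140 and 228 CPM (5.77 ± 0.62, adjusted p = 0.0067), Foxs1, a forkhead factor, from 1.42 and 0 CPM to 58.7 and 104.1 CPM (adjusted p = 0.011), and Wfdc1 from 6.20 and 0 CPM to 70.7 and 157 CPM (adjusted p = 0.042). Hhip was the fifth. Every pool of E12.5 was above every pool of E11.5 for these 5, which the rule required. The falls were Ereg, an EGF receptor ligand, from 61.6 and 73.6 CPM to 2.39 and 0 CPM (−5.81 ± 0.95, adjusted p = 0.027), Myl1, a myosin light chain, from 104.6 and 110.2 CPM to 6.49 and 0.578 CPM (adjusted p = 0.022) and Nup62cl from 116.3 and 47.4 CPM to 1.37 and 6.07 CPM (adjusted p = 0.029). Sprr2a1 and Sprr2a2 are near-identical copies with the same counts in these cells, so their fall from 92.2 and 48.2 CPM to 3.07 and 0.578 CPM (adjusted p = 0.020) cannot be given to either. Of the 23 genes of the lists and of this rule that passed, 16 passed without the cells with more Xist and 3, Col1a2, Enpep and Sct, without the library with globin. None of the 23 changed direction in any of 15 alternatives.

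Single cells show where this RNA lay. Sox9 was high, at 500 CPM or more, in 10 of 52 cells at E11.5 (4 and 6 per replicate) and in 9 of 48 at E12.5 (5 and 4). No cell lay between 400 and 600 CPM, but Sox9 reached 100 CPM in 21 of the 52 and 18 of the 48. Cells that share a pool are no replicates, and the values that follow are a description. In the cells with high Sox9, Amh reached 100 CPM in 0 of 10 at E11.5 and in 7 of 9 at E12.5, with medians of 0 and 292 CPM. The medians of Dhh in the same cells were 3.56 and 473 CPM and those of Ptgds 174 and 804 CPM. The replicates of E11.5 were apart: in the 4 cells of replicate 1 the medians of Amh, Dhh and Ptgds were 73.5, 172 and 444 CPM, and in the 6 of replicate 2 they were 0, 0 and 56.1 CPM. At E12.5 the same medians were 275, 579 and 804 CPM in replicate 1 and 401, 384 and 857 CPM in replicate 2. The difference between the time-points was thus smaller against replicate 1 of E11.5 than against replicate 2. These cells were also spread over different clusters (named here by their leading genes): of those of E11.5, 6 were in the cluster led by Dhh and 4, all of replicate 2, in the one led by Adam8, and of those of E12.5, 8 were in the cluster led by Dhh and 1 in the one led by Upk3b. Mki67, a marker of cycling cells, reached 100 CPM in 1 of 10 and 1 of 9 of them, and Cdkn1c in 9 of 10 and 6 of 9. No cell at either time-point held both Amh and Mki67 at 100 CPM.

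Cyp17a1 reached 100 CPM in 0 of 52 cells at E11.5 and in 6 of 48 at E12.5, 1 of replicate 1 and 5 of replicate 2, with no cell of E12.5 between 50 and 200 CPM and a highest level of 98.03 CPM at E11.5, in a cell just under the cut. All 6 held Star (214 to 768 CPM), Hsd3b1 (up to 1966 CPM) and Insl3 (10.7 to 84.7 CPM), and Sct at 100 CPM or more. Cyp11a1 had a UMI in 4 of the 6. Wt1 had no UMI in any of the 6, while Nr5a1 was at 72.9 to 757 CPM and Gata4 at 28.5 to 431 CPM. The 6 cells therefore held Gata4 and Nr5a1 RNA and no Wt1 UMI, while of the cells with a Cyp17a1 UMI under 100 CPM, both of those at E11.5 held Wt1 and so did 5 of the 6 at E12.5. Mki67 reached 100 CPM in 4 of the 6. Hsd3b1 also gave UMIs in cells without Cyp17a1. At E12.5 replicate 2, 50% of all Negative cells thinned to 50000 UMIs had one, with the cells high in Cyp17a1 not set apart. Of the BVSC cells of the same library 39.1% had one. A UMI of this gene in a single cell of that library is at that background.

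Tcf21 reached 100 CPM in 13 of 52 cells at E11.5 (5 and 8) and in 28 of 48 at E12.5 (13 and 15). Between 100 and 200 CPM lay 2 and 5 of these, and 1 and 4 more cells were between 50 and 100 CPM, just under the cut. Nr2f2 was at 100 CPM or more in 11 of the 13 and in 27 of the 28. Their Sox9 was mostly low, with medians of 64.2 and 4.97 CPM, and none held Amh, Dhh or Ptgds at 100 CPM. Mki67 reached 100 CPM in 9 of the 13 and 19 of the 28. Fst reached 100 CPM in 4 cells of E11.5 and 1 of E12.5, and Wnt4 in 6 and 0.

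The 100 cells fell into 6 clusters, which are described by their leading genes with no test. A cluster of 14 cells was led by Dhh, Rnase1, Ptgds, Mt3 and Cited4, with 5 of the supporting cell genes among its first 10, and is called supporting-cell-like. It held 4, 2, 5 and 3 cells of the 4 pools and a mean Sox9 of 995 CPM. A cluster of 8 cells led by Cyp17a1, Hsd3b1, Wfdc1, Aldh1a7 and Sct, 3 of the first 10 being steroidogenic genes, is called steroidogenic-like, and all its cells are of E12.5. The other 4 had too few markers among their leading genes and stay unnamed. These were led by Upk3b, Tm4sf5, Aldh1a2 and Kdr (25 cells), by Adam8, Ereg, Myl1 and Nrtn (24 cells, with Wnt4 last of the first 10), by Pdgfrb, Enpep and Col14a1 (16 cells) and by Pcp4l1, Ngfr and Tgfbr3 (13 cells). Wt1 was high in the first 2 of these, with means of 465 and 501 CPM, and the cluster led by Pdgfrb had the highest mean Nr2f2, 601 CPM. Upk3b is a gene of mesothelial surface epithelia, and its mean was 357 CPM in the cluster it led and 0 to 1.79 CPM in the others.

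The second comparison asked what sets the soma apart from the germ cells of the same gonads. With time-point as covariate, 7551 of 15601 genes passed, 48.4%, with 23.9% higher and 24.5% lower in Negative cells (edgeR, 4 pools against 4). The counts of the lists are read against these shares, and the lists were chosen with earlier results of these data known. The 17 interstitial and stromal genes were all higher, as were 19 of 21 supporting cell genes, 12 of 18 gonad regulators, 7 of 11 steroidogenic and 5 of 7 ovarian pathway genes. Their median log2 differences were 6.26, 5.68, 4.50, 3.42 and 4.32, against −0.088 over all genes. The 15 germ cell genes were all lower, with a median of −4.01. Of the regulators, Nr5a1 differed by 7.17 ± 0.42 on the log2 scale (adjusted p = 4.2e-08), and Six4, a homeobox gene active before Sry, went the other way, with 2.05 to 5.80 CPM in Negative and 33.5 to 68.97 CPM in BVSC pools (adjusted p = 3.8e-06). Map3k4, a kinase upstream of Sry, was lower too.

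By the rule for named genes, the largest differences included those of Dhrs3, a retinaldehyde reductase, Tshz2, Smoc2, Clca3a1 and Plin3, which coats lipid droplets, and on the germ cell side Lhx1, Hormad1, Liph and Zfp42 (REX1). Dhrs3 was at 50.2 to 144.8 CPM in Negative and at 0.121 to 1.05 CPM in BVSC pools (7.83 ± 0.45, adjusted p = 3.4e-08, edgeR). Zfp42, a pluripotency gene, was at 4.10 to 9.08 CPM against 213 to 268 CPM (−5.12 ± 0.21, adjusted p = 6.6e-09). The 4 pools of one gate did not overlap those of the other for any of these 9, which the rule required. Smoc2 and Clca3a1 also rose with time, Smoc2 from 36.3 and 31.8 CPM to 177 and 241 CPM (adjusted p = 0.0081).

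Germ cell RNA was not absent from the Negative cells. Dazl, an RNA-binding protein of germ cells, was at 11.51 to 53.5 CPM in Negative and at 239 to 608 CPM in BVSC pools, and Dppa5a at 401 to 664 CPM against 1544 to 1919 CPM. Dppa3, whose reporter sets the gate, was at 118.3 to 178 CPM against 736 to 950 CPM, with a UMI in every Negative cell. Of Negative cells thinned to 50000 UMIs, 35.7%, 47.6%, 89.5% and 90.9% held a UMI of Dazl in the 4 pools, and 97.1 to 100% of BVSC cells. In the other direction, Wt1 and Sox9 UMIs were found in 14.5 to 32.9% and 0 to 18.8% of thinned BVSC cells. The source of this RNA was not tested. In 1 BVSC cell of E12.5 replicate 2 Wt1 was at 879 CPM and Sox9 at 523 CPM, far above the median of 2.61 CPM for Wt1 in that pool.

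**Figure D4:**
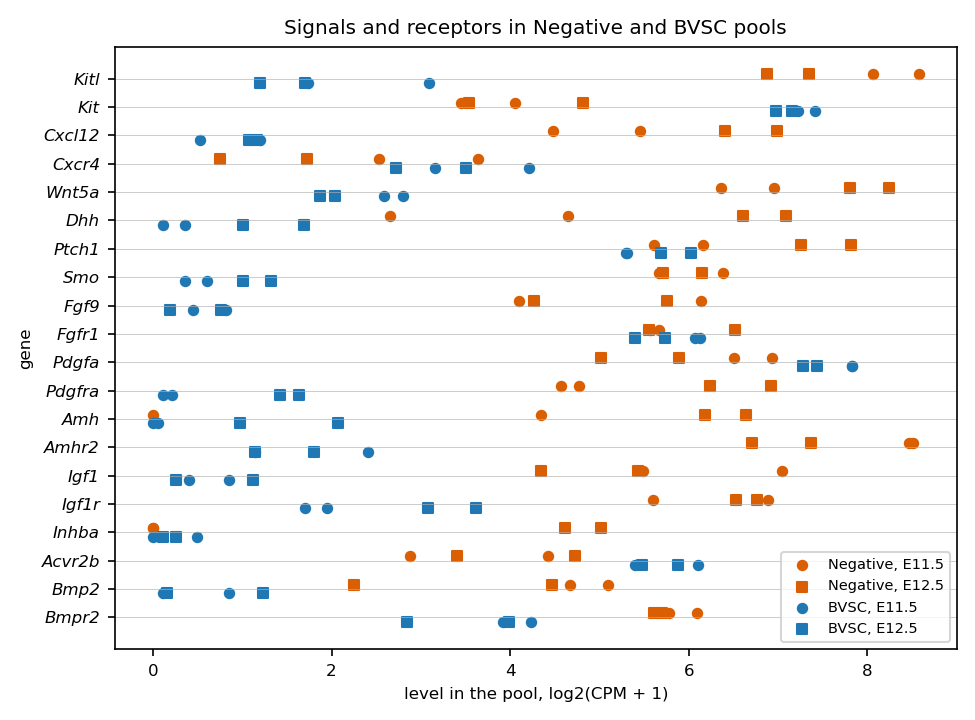
Levels of signals and receptors (rows) in the 4 Negative (orange) and 4 BVSC (blue) pools, as log2(CPM + 1), with circles for E11.5 and squares for E12.5. Kitl and Kit lie on opposite sides, and the pools of Cxcr4, Ptch1 and Fgfr1, among others, overlap.

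Most signals were higher in the soma, and fewer of the receptors differed. Of 21 signals 17 were higher in the soma and 1, Pdgfa, was lower, with a median difference of 5.34. Kitl, at 116.6 to 380 CPM, was at 1.304 to 7.52 CPM in germ cells (6.17 ± 0.36, adjusted p = 3.9e-08, edgeR), and its receptor Kit was at 9.92 to 27.2 CPM in the soma and at 124.5 to 170 CPM in germ cells (−3.20 ± 0.32, adjusted p = 5.0e-06). Cxcl12, the chemokine that guides germ cells, was at 21.2 to 125.7 CPM against 0.444 to 1.29 CPM (5.86 ± 0.50, adjusted p = 1.2e-06), while for its receptor Cxcr4 the pools overlapped (0.683 to 11.51 against 5.60 to 17.4 CPM, adjusted p = 0.101). Ligand and receptor were thus apart for Kitl and Kit, and no difference passed for Cxcr4. Pdgfa, the ligand of Pdgfra, was at 31.4 to 121.3 CPM in the soma and at 154 to 227 CPM in germ cells (−1.46 ± 0.22, adjusted p = 0.00016). Its receptor was at 22.7 to 120 CPM against 0.081 to 2.11 CPM (6.37 ± 0.47, adjusted p = 3.6e-07). Hedgehog genes were on the somatic side: Dhh at 5.29 to 135.2 CPM against 0.081 to 2.22 CPM, Ptch1 at 47.9 to 224 CPM against 38.3 to 64.3 CPM and Smo, the transducer, at 49.9 to 82.4 CPM against 0.283 to 1.497 CPM (adjusted p 1.5e-06, 0.0027 and 4.9e-07). Ptch1 was the only one of the 3 whose pools overlapped. Cyp26b1, the enzyme that degrades retinoic acid and keeps male germ cells from meiosis, was at 33.8 to 110 CPM against 0.386 to 1.56 CPM (6.28 ± 0.50, adjusted p = 6.5e-07). Of 20 receptors 7 were higher and 2, Kit and Acvr2b, lower.

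Of 19 basement membrane and adhesion genes 15 were higher in the soma, and 3 were lower: Cdh1 (E-cadherin, 2.30 to 8.68 against 43.1 to 80.1 CPM), Fn1 (fibronectin, a log2 difference of −1.17 ± 0.25, adjusted p = 0.0022) and Nid2. Cdh2, N-cadherin, was at 31.4 to 72.6 CPM against 1.61 to 5.53 CPM (3.92 ± 0.45, adjusted p = 1.4e-05, edgeR), so both cadherins differed and in opposite directions. Of 20 cell cycle genes 4 were higher and 11 lower, with a median of −0.56. The 4 were Ccnd1, Ccnd2, Cdkn1b and Cdkn1c, and the lower ones included 6 of the MCM helicase genes. Ccnd2, a D-type cyclin, was at 311 to 484 CPM in the soma and at 8.40 to 14.8 CPM in germ cells (5.14 ± 0.22, adjusted p = 6.9e-09). Mki67 was at 136.4 to 256 CPM against 196 to 282 CPM, overlapping (adjusted p = 0.165). Of the lists of other cell types, 2 of 4 mesonephric genes were higher and 1 lower, 2 of 9 endothelial higher and 4 lower, 2 of 5 macrophage higher, 6 of 7 globin higher and 2 of 4 other erythroid higher and 1 lower. Of the sex-linked genes Ddx3y was higher and Eif2s3y lower. With the replicate as a block 7 of 162 named calls were lost, among them Myh11, Lhcgr, Fst and Jag1 (adjusted p = 0.134, 0.095, 0.076 and 0.091 with the block), and none turned its direction in 18 alternatives, of which the fit of thinned cells gave a value for 157 and that without the library with globin for 161.

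The third comparison asked whether the soma changed otherwise than the germ cells from E11.5 to E12.5, by the interaction of gate and time-point. It called 13 of 15601 genes, 0.0833% (8 higher and 5 lower in the change of the soma, 0.0513% and 0.032%, edgeR). With the replicate as a block, which the shared embryos of both gates allow within limits given below, it called 324. Sct had the largest difference: it rose in the soma as given above and went from 25.01 and 32.02 CPM to 8.02 and 7.34 CPM in germ cells (7.69 ± 0.76, adjusted p = 0.0044). Osr2, a zinc finger factor, was at 25.3 and 28.5 CPM and then at 124.6 and 174 CPM in the soma, and at 4.44 and 6.10 and then at 1.45 and 1.52 CPM in germ cells (4.36 ± 0.53, adjusted p = 0.014). Dmrt1, a factor of both Sertoli and germ cells, was at 54.5 and 43.9 and then at 19.5 and 12.4 CPM in the soma, and at 45.98 and 34.2 and then at 130.7 and 103.01 CPM in germ cells. Its changes went in opposite directions and differed by −3.12 ± 0.49 (adjusted p = 0.047). Cd24a, a surface protein, Fstl1, a follistatin-like secreted protein, and Sept11, a septin, had differences of 2.65, 2.44 and 2.04, each higher at E12.5 in both soma pools and lower in both germ cell pools. Dusp4, a phosphatase of MAP kinases, Emb and Actr6 had differences of −2.93, −2.39 and −2.29. The rule for named genes required that the changes of the soma and of the germ cells did not overlap, so that much was fixed by the choice. It did not require opposite directions. In 8 of the 9 named genes the pools of the soma and of the germ cells each held apart by time-point in opposite directions, Dusp4 being near-level in germ cells (73.5 and 75.6, then 70.4 and 80.4 CPM). All 9 passed with the block and without the cells with more Xist, 2 passed without the library with globin, and 1 to 9 when a pool was left out, 1 without E12.5 replicate 2 of either gate. Wnt5a, not called without the block (2.35 ± 0.44, adjusted p = 0.089), passed with it (adjusted p = 3.24e-06), as did Cdkn1a, a cell cycle inhibitor at 252 and 116.98 and then at 55.3 and 7.81 CPM in the soma (adjusted p = 0.305 without and 1.96e-18 with the block). The block adds a term for each replicate of each time-point, which leaves little of the 8 pools to measure spread. Deviations of both gates correlated at only 0.152 (E11.5) and 0.121 (E12.5), and the library with globin held no BVSC cells. Calls that need the block are given with these limits. The listed genes other than Dmrt1 did not pass without the block, and the calls ranged from 0.00572% to 0.59% of genes when each pool was left out in turn.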

How the data were processed

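Per the labels and the methods of the study, the authors took UMIs with UMI-tools, aligned reads to mm10 with STAR, counted them with featureCounts (Subread) and deposited UMI counts per gene and cell; base calling named CASAVA 1.8. The library labels give no groups, so time-point, gate and replicate came from the cell names. The UMI counts of each pool were summed and tested with edgeR 4.0.16 (R 4.3.3; quasi-likelihood, TMM, filterByExpr) and, as an alternative, DESeq2 1.42.0, with Benjamini-Hochberg adjusted p under 0.05. Clusters were made with scanpy 1.11.5, and no doublet caller was run. Medians of UMIs per cell and totals per pool stand in the report; intervals and floors cover counting error only. The p-values measure the spread between 2 pools of embryos a group.

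Genes named were those of the lists and, for each test, the 5 largest rises and 5 largest falls that passed, whose groups did not overlap and whose mean was 5 or more on the log2 CPM scale. Members and lists were chosen with earlier results of these data known. Leaving out the cells with more Xist, the library with globin or the cells without gonadal markers was chosen after seeing the data. Negative and BVSC pools of a replicate came from the same embryos. Their deviations from the group means correlated at 0.152 (E11.5) and 0.121 (E12.5) over 14431 genes. Some genes of the lists and of this rule are not reported here. The scripts were tested on simulated data.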

Additional observations from a re-analysis of the deposited data

Results flagged for a closer look

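The change from E11.5 to E12.5 differed between the Negative and BVSC pools, by the interaction term in edgeR, for the 9 named genes. The differences on the log2 scale were 7.69 for Sct, 4.36 for Osr2, 2.65 for Cd24a, 2.44 for Fstl1 and 2.04 for Sept11. They were −3.12 for Dmrt1, −2.93 for Dusp4, −2.39 for Emb and −2.29 for Actr6. In the BV gate of E11.5 replicate 1, which entered no comparison, 4 of 32 cells held more UMIs of Xist than of the 4 Y-linked genes, against 1 of 289 BVSC cells. The cause was not tested.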

How the results depend on the processing

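With 2 pools a group, the comparison of time-points rested on 4 Negative pools. In cells with less than 5% globin it called 1.01% of the genes tested (71 higher and 52 lower). DESeq2 called 3.88% (473 genes), a fit of all 8 pools 1.33%, no filter on low counts 3.19%, the replicate block 3.58% (436 genes, by numbers that are shared in name only across time-points, correlation 0.0255 in Negative pools), the fit without the library with globin 0.0932% (11 genes), and leaving out a pool 0.7 to 2.89%. With all Negative cells the share was 0.688%, and in the same order 3.83%, 1.41%, 3.23%, 4.44%, 0.0932% and 0.7 to 3.0%, with 1.3% for cells thinned to 50000 UMIs. The interaction of gate and time-point called 0.0833%, DESeq2 1.31%, thinned cells 0.241%, no filter 1.07%, the replicate block 2.08% (324 genes), the fit without the library with globin 0.0196%, and leaving out a pool 0.00572 to 0.59%. The counts of the comparison of gates stayed within 1.5 times the main count in each alternative run, and 150 to 162 of its 162 named calls passed. At a globin threshold of 20% the share of cells over it in E11.5 replicate 1 was 0 in place of 3.33%. No call of a named gene changed direction in an alternative that gave it a value. The fit without the library with globin holds fewer cells, and the cause of the other changes was not tested.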
